A study of Mus musculus with 6 samples.

Results

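The p53 group compared here held 10 of the 54532 genes listed in the count table, all 10 of which were among the 15938 genes tested. They were chosen by gene name: Trp53, which encodes the transcription factor p53, and 9 genes known as its targets or partners, namely Mdm2, Mdm4, Ccng1, Sesn1, Zmat3, Phlda3, Trp53inp1, Aen and Plk2. RNA sequencing covered 6 cultures of CD4+ T cells taken from spleens of male C57BL/6 mice aged 6 to 8 weeks and grown for 3 days under Th1 conditions, with anti-CD3, anti-CD28, IL-2, IL-12 and anti-IL-4. The 3 Th1 cultures were the controls, which by the study's description held vehicle (0.1% DMSO), and 3 ALX-5407-treated cultures held 500 nM of ALX-5407, which blocks glycine uptake through GlyT1 (Slc6a9). The study's results text, however, calls the controls untreated. The labels give 72 h under these conditions, whereas the study's sequencing methods give 24 h of exposure to ALX-5407. Its figure legend describes treatment with ALX-5407 and 3 days of Th1 culture, and names no 24 h exposure. The labels describe the replicates as biological, but nothing says whether their cells came from separate mice, so p-values measure the spread between these cultures.

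p53 is a transcription factor that cells hold at a low level by constant breakdown and that is stabilised by DNA damage and other stress. Mdm2 is the ubiquitin ligase that marks p53 for breakdown and is itself switched on by p53, which closes a feedback loop, and Mdm4 is its partner that blocks p53 without being a strong ligase. Targets of p53 halt the cell cycle, repair DNA, tune metabolism or bring on apoptosis, and in activated T cells the pathway restrains the rapid division that follows stimulation. Much of the control of p53 lies in its protein, which these counts do not measure.

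Depth lay between 30801753 and 36727788 counts per library. Of all genes tested, 47.7% had an adjusted p-value under 0.05 in edgeR's quasi-likelihood test, 24.5% being higher and 23.2% lower with ALX-5407, so a call by itself was common. The 7 T cell markers, Cd4 and Cd3e among them, summed to 2310 to 2410 CPM (reads scaled to a common library size) in Th1 cultures and 2290 to 2320 CPM with ALX-5407. Within that sum, 2 of 7 were higher (Cd28 and Tbx21) and 3 of 7 lower (Cd4, Cd3d and Cd3g). Cd4 went from a mean of 646 to 470 CPM, and Cd28 from 535 to 766 CPM. Summed markers of B cells were 7.6 to 8.84 CPM against 11.4 to 14.4 CPM with ALX-5407 (3 of 5 genes higher), and those of platelets 3.72 to 5.0 CPM against 7.76 to 10.4 CPM (2 of 3 higher). Myeloid markers summed to 15.5 to 21 CPM against 5.38 to 6.3 CPM (1 of 6 genes lower). Cd68 was the only myeloid marker tested and gave most of that sum, at a mean of 18.3 CPM against 5.44 CPM with ALX-5407. The other myeloid markers, Lyz2 and Csf1r among them, were too sparse to test. NK cell markers summed to 3.8 to 4.27 against 1.27 to 1.65 CPM (1 of 3 lower), where only Klre1 was tested. CD8 T cell markers summed to 9.25 to 9.59 against 6.71 to 8.87 CPM (1 of 2 lower). The neutrophil list gave 69.9 to 75.3 against 24.1 to 31.6 CPM (1 of 4 genes lower, Ly6g), while S100a8 and S100a9 had no count in any library. Dendritic cell markers summed to 4.05 to 4.87 against 2.94 to 3.67 CPM and erythroid markers to 0.461 to 0.78 against 0.428 to 0.697 CPM, the former without and the latter with overlap between groups. The part of these cells in the results below was not tested. In bulk RNA, fewer cells of a type and less RNA per cell cannot be told apart.

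The sequences below show where the p53 consensus lies near the starts of these genes. RefSeq promoter windows (GRCm38.p6, 250 bases before to 50 bases after each RNA start) were at hand for 8 of the 10 genes, in 11 windows. Zmat3 and Trp53inp1 had no entry. The p53 decamer, which has 3 purines, a C, 2 bases that are A or T, a G and 3 pyrimidines and reads alike on both strands, was searched in all 32851 windows and was present without mismatch in 8.36% of them. It stood in 6 of the 11 windows, belonging to Ccng1, Mdm2, Trp53, Sesn1 and Aen, and was not found in those of Mdm4, Phlda3 and Plk2. The Aen windows overlap and hold the same decamer, so that site is counted more than once. A full site is a pair of such decamers with a spacer of at most 13 bases. Ccng1 held a full site with 1 mismatch and a spacer of 0 bases, starting 195 bases before its RefSeq RNA start at 40755286, and 0.627% of all windows held a full site with at most 1 mismatch. In the lines below the letters in capitals mark that site in Ccng1 and the single decamer in the other genes. The Ccng1 and Mdm2 stretches end where annotated exons begin (chr11:40755312-40755536 and chr10:117710759-117711008, both on the - strand), which for Mdm2 is the RefSeq RNA start and for Ccng1 lies 25 exon bases before it, and are set together because Ccng1 was called higher and Mdm2 was not. The other 3 are the decamer with its nearest bases, in Trp53 (chr11:69580274-69580303, + strand), Sesn1 (chr10:41887256-41887285, + strand, by its downstream RNA start) and Aen (chr7:78895927-78895956, + strand, within an annotated exon).
Ccng1: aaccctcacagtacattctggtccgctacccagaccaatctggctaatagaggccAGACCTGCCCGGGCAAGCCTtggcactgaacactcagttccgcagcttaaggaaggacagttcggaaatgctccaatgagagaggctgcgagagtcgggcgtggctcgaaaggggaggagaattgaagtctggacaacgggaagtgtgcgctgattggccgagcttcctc
Mdm2: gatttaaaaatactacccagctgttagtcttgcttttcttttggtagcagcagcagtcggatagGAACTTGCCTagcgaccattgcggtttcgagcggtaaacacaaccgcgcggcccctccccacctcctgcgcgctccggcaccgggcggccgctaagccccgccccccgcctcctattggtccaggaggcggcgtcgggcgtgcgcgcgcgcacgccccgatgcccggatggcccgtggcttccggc
Trp53: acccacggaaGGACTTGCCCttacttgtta
Sesn1: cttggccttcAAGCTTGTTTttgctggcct
Aen: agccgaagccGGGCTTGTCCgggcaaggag
A match is a description of letters, not a measured binding site. Both genes that rose and genes that were not called held the decamer, and 3 genes with a window had none there. The closest full site of Sesn1, which was not called, had 2 mismatches, and 4.09% of all windows held one with at most 2. Those of Trp53 and Aen, both called higher, and of Mdm4, not called, had 3 mismatches. That of Mdm2 had 4, and those of Phlda3, called higher, and Plk2, called lower, had 5. Bases outside these windows were not searched, so sites elsewhere in or near these genes would not be seen. Whether a match goes with a call was not tested.

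With ALX-5407, Trp53 and 5 of its targets (Zmat3, Aen, Phlda3, Trp53inp1 and Ccng1) were called higher, by 1.35-fold to 1.69-fold, Plk2 was called lower, and Mdm2, Mdm4 and Sesn1 were not called. The 6 higher calls among 10 genes stand beside 24.5% over all genes tested, and the 1 lower call beside 23.2%. The median log2 fold change of the 10 genes was 0.48, against 0.0053 for all genes tested. The genes were chosen with earlier results of these data known, so these counts describe the chosen genes and are not evidence about p53 targets at large. None of the 10 passed the study's own threshold, an adjusted p under 0.05 with an absolute log2 fold change over 1, which 3.36% of all genes tested passed as higher and 6.68% as lower in edgeR. CPM values did not overlap between the groups for 8 of the 10 genes (6 higher and 2 lower), against 55.5% of all genes tested (28.4% higher and 27.1% lower).

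**Figure D1:**
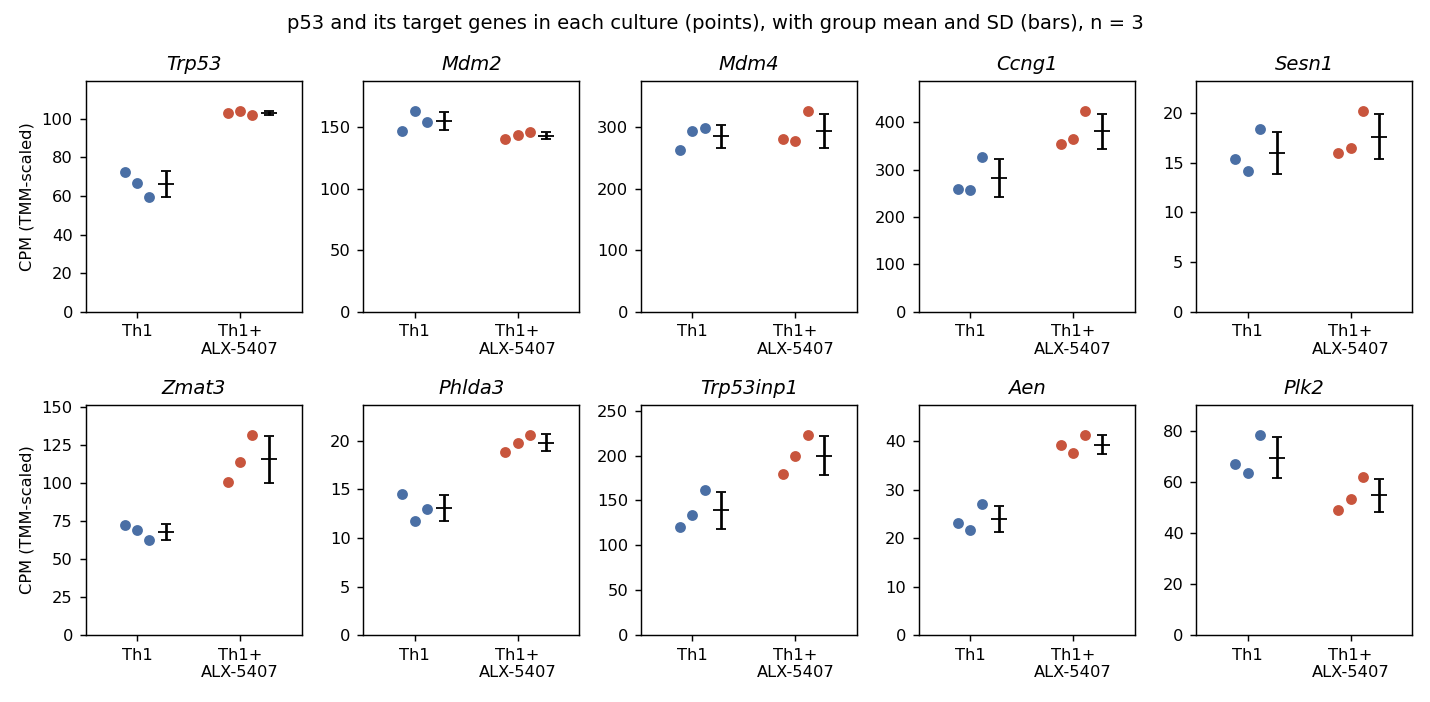
Level of each gene in CPM (vertical axis, from 0, its own scale in each panel) in the 3 Th1 cultures (blue) and the 3 ALX-5407-treated cultures (red), with the group mean and SD as bars (n = 3). Trp53, Zmat3, Phlda3, Trp53inp1, Aen and Ccng1 sit higher with ALX-5407, Plk2 lower, and the points of Mdm4 and Sesn1 overlap between groups.

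Trp53 (ENSMUSG00000059552, GRCm38 chromosome 11, 69580359 to 69591873, + strand) had 2365, 2093 and 1826 reads in the Th1 cultures and 3626, 3875 and 3585 reads in the ALX-5407-treated cultures. Scaled, these were 72.6, 66.8 and 59.3 CPM against 103, 104 and 102 CPM. All 3 treated cultures were above all 3 controls, and they lay closer together than the controls did. The means were 66.2 ± 6.66 and 103 ± 0.84 CPM (SD, n = 3 each), a 1.55-fold increase (log2 fold change 0.64, standard error 0.0796, adjusted p = 6.93e-06 in edgeR). The processed pseudogene Trp53-ps, a copy that could share reads with Trp53, had 15 to 63 reads per library and a log2 fold change of -0.11 in edgeR, with an adjusted p of 0.85.

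The inhibitors of p53 were not called. Mdm2 (ENSMUSG00000020184, chromosome 10, 117688875 to 117710758), the gene printed above with a decamer before its start, had 147, 163 and 154 CPM in Th1 cultures and 140, 144 and 146 CPM with ALX-5407. The treated cultures were below the controls without overlap, but the distance was small. The log2 fold change was -0.11 (standard error 0.0693, 95% interval -0.26 to 0.03, adjusted p = 0.193 from edgeR), so that a rise of more than 1.02-fold lay outside the interval. Mdm4 (ENSMUSG00000054387, chromosome 1, 132959484 to 133030561) had 263, 293 and 298 CPM in Th1 cultures and 280, 277 and 326 CPM with ALX-5407. Its groups overlapped, and its log2 fold change was 0.05 (standard error 0.0807, 95% interval -0.12 to 0.22, adjusted p = 0.663 from edgeR). Its pseudogene Mdm4-ps had at most 9 reads in any library.

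Ratios of read counts within a culture do not depend on library scaling. There were 2.03, 2.44 and 2.59 Mdm2 reads for each Trp53 read in the Th1 cultures, and 1.36, 1.38 and 1.42 in the ALX-5407-treated cultures. The ratio was lower in every treated culture, with a mean log2 difference of -0.75 (exact permutation test, two-sided, p = 0.1, the smallest p that 3 against 3 cultures allow, and 0.15 with Benjamini-Hochberg adjustment over 3 ratios). Mdm2 over Mdm4 was 0.561, 0.555 and 0.516 in Th1 cultures and 0.499, 0.518 and 0.447 with ALX-5407. These groups overlapped, and the log2 difference was -0.16 (exact permutation test, p = 0.2, and 0.2 adjusted over the 3 ratios).

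**Figure D2:**
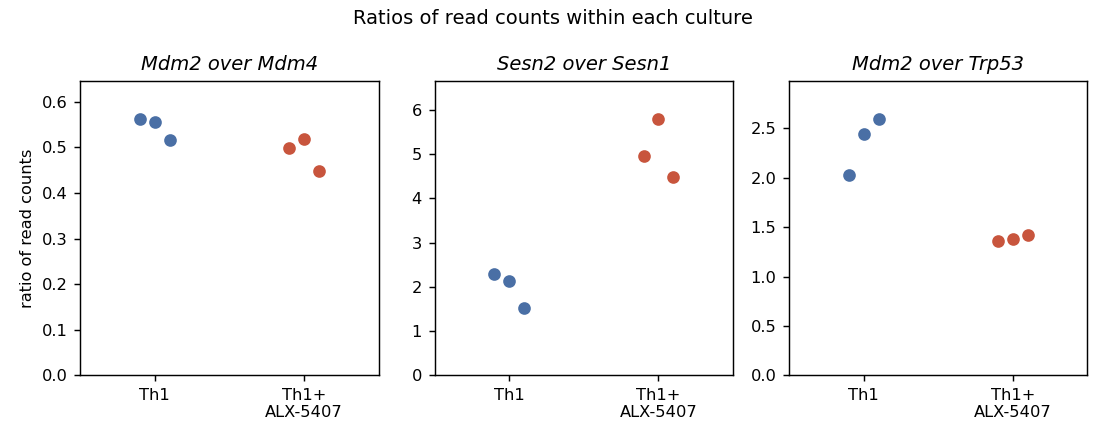
Ratio of read counts of gene pairs (vertical axis, from 0, its own scale in each panel) in each of the 3 Th1 (blue) and 3 ALX-5407-treated (red) cultures. Mdm2 over Trp53 falls from 2.03 to 2.59 down to 1.36 to 1.42, Sesn2 over Sesn1 goes from 1.53 to 2.29 up to 4.47 to 5.78, and Mdm2 over Mdm4 overlaps.

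Among targets that act on cell death, Zmat3 and Aen had the largest increases of the group. Zmat3 (ENSMUSG00000027663, chromosome 3, 32334792 to 32366014) encodes an RNA-binding zinc finger protein and had 72.9, 69.4 and 62.6 CPM in Th1 cultures and 101, 114 and 132 CPM with ALX-5407. The lowest treated culture was well above the highest control. The increase was 1.69-fold (log2 fold change 0.76, standard error 0.0932, adjusted p = 5.79e-06 from edgeR). Aen (ENSMUSG00000030609, chromosome 7, 78895854 to 78911209), an apoptosis-enhancing nuclease, had 23.2, 21.8 and 27.0 CPM in Th1 cultures and 39.2, 37.5 and 41.3 CPM with ALX-5407. Its groups did not overlap either, and the increase was 1.64-fold (log2 fold change 0.72, standard error 0.0946, adjusted p = 1.23e-05 from edgeR). Trp53inp1 (ENSMUSG00000028211, chromosome 4, 11156431 to 11174379) encodes a nuclear protein that takes part in p53-dependent cell death and in autophagy. It had 121, 134 and 162 CPM in Th1 cultures and 180, 199 and 223 CPM with ALX-5407, a gap that is small beside the spread within each group. It rose 1.44-fold (log2 fold change 0.53, standard error 0.1, adjusted p = 0.000373 from edgeR).

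Phlda3 (ENSMUSG00000041801, chromosome 1, 135766119 to 135769136) encodes a small pleckstrin-homology protein that competes with AKT for membrane lipids. It had 14.5, 11.8 and 13 CPM in Th1 cultures and 18.8, 19.8 and 20.6 CPM with ALX-5407, without overlap. The increase was 1.51-fold (log2 fold change 0.59, standard error 0.109, adjusted p = 0.000284 from edgeR).

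Of the cell cycle members, Ccng1 rose and Plk2 fell. Ccng1 (ENSMUSG00000020326, chromosome 11, 40748552 to 40755311), the cyclin G1 gene whose match to a full site, with 1 mismatch, is printed above, had 260, 257 and 328 CPM in Th1 cultures and 354, 365 and 424 CPM with ALX-5407. The highest control lay close under the lowest treated culture. It rose 1.35-fold (log2 fold change 0.43, standard error 0.0964, adjusted p = 0.00144 from edgeR). Plk2 (ENSMUSG00000021701, chromosome 13, 110395046 to 110400844), a polo-like kinase gene, had 66.9, 63.3 and 78.4 CPM in Th1 cultures and 48.9, 53.3 and 61.8 CPM with ALX-5407. All treated cultures were below the controls, by a narrow margin, and the level was 0.786 times that of the controls (log2 fold change -0.35, standard error 0.0969, adjusted p = 0.00748 from edgeR). Without the first ALX-5407 replicate the log2 fold change was -0.27 and the adjusted p 0.0582, over the threshold of 0.05.

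Sesn1 (ENSMUSG00000038332, chromosome 10, 41809935 to 41908424) encodes sestrin 1, which lowers oxidative stress and holds back the kinase complex mTORC1. It had 15.4, 14.2 and 18.4 CPM in Th1 cultures and 16.0, 16.5 and 20.2 CPM with ALX-5407, so the groups overlapped. The log2 fold change was 0.13 (standard error 0.123, 95% interval -0.13 to 0.40, adjusted p = 0.392 from edgeR), and an increase beyond 1.31-fold lay outside the interval. Its paralog Sesn2, a p53 target that also answers to amino acid shortage through ATF4, averaged 31.2 ± 3.71 CPM in Th1 and 88.4 ± 8.13 CPM in treated cultures (SD, n = 3 each), rising 2.83-fold (log2 fold change 1.5, standard error 0.0953, adjusted p = 5.95e-09 from edgeR). There were 2.29, 2.13 and 1.53 Sesn2 reads for each Sesn1 read in Th1 cultures and 4.96, 5.78 and 4.47 with ALX-5407. This ratio did not overlap between groups (mean log2 difference 1.37, exact permutation test p = 0.1, the smallest possible, and 0.15 adjusted over the 3 ratios). Sesn3, the third sestrin gene, was at 286 ± 4.81 and 286 ± 16.5 CPM (SD, n = 3 each; adjusted p = 0.98 from edgeR).

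The other paralogs are given beside the members of their families, and differences between paralogs were not tested apart from the sestrin ratio. Of 17 paralogs, 13 were tested, with 6 higher and 2 lower (46.2% and 15.4% of those tested, beside 24.5% and 23.2% of all genes tested), and 5 not called. Sesn2 and Plk3 are counted again in the target lists below, and Trp63 and Trp73 are also listed as regulators. Ccng2, the cyclin G2 gene, fell by 0.48 on the log2 scale (adjusted p = 7.2e-05 from edgeR), beside the rise of Ccng1. The polo-like kinase genes Plk1, which drives mitosis, Plk3, a stress kinase, and Plk4, which starts centriole copying, rose by 0.91, 0.34 and 0.43 on the log2 scale (adjusted p of 0.00568 or less from edgeR), beside the fall of Plk2. The Aen relatives Isg20 and Isg20l2, both exonuclease genes, rose by 0.73 and 0.59. Zmat2, a splicing protein gene, fell by 0.66, and Zmat1 (log2 fold change 0.02) and Zmat5 (0.22) were not called. Trp53inp2, which acts in autophagy, had 0.37 (adjusted p = 0.053 from edgeR), and Phlda1 had -0.48 (adjusted p = 0.125 from edgeR). The p53 relatives Trp63 and Trp73 were not tested, with no read and with at most 32 reads in any library.

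**Figure D3:**
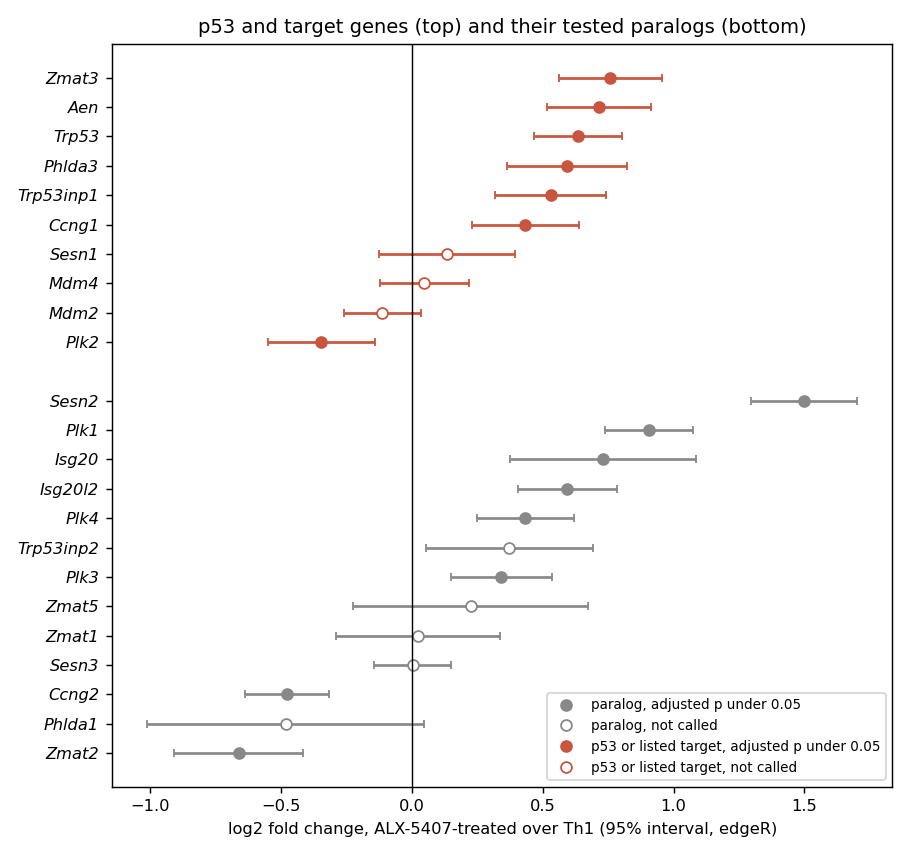
Log2 fold change of ALX-5407-treated over Th1 cultures (horizontal axis) with its 95% interval from edgeR, for Trp53, Mdm2, Mdm4 and the listed targets (red) and their 13 tested paralogs (grey), filled where the adjusted p is under 0.05. Sesn2 lies at 1.5 and Sesn1 at 0.13, and Ccng1 and Ccng2 lie on opposite sides of 0.

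Per length of gene, levels ranged widely. In Th1 cultures the order by RPKM (CPM per 1000 bases of merged exons, mean ± SD, n = 3) was Ccng1 at 80.3 ± 11.5, Mdm2 at 30.4 ± 1.51, Trp53inp1 at 21.4 ± 3.2, Mdm4 at 19.2 ± 1.28, Trp53 at 16.4 ± 1.65, Plk2 at 15.5 ± 1.76, Phlda3 at 8.39 ± 0.876, Zmat3 at 5.97 ± 0.456, Aen at 4.13 ± 0.465 and Sesn1 at 4.02 ± 0.534. The ranges of neighbours overlapped from Trp53inp1 through Mdm4 and Trp53 to Plk2, and between Aen and Sesn1. Ccng1 stood above 96.4% of all genes tested, and Sesn1 above 49.7%. With ALX-5407 the order was Ccng1 at 108 ± 10.7, Trp53inp1 at 31 ± 3.33, Mdm2 at 28.1 ± 0.585, Trp53 at 25.4 ± 0.208, Mdm4 at 19.9 ± 1.85, Phlda3 at 12.7 ± 0.583, Plk2 at 12.2 ± 1.46, Zmat3 at 10.1 ± 1.35, Aen at 6.78 ± 0.328 and Sesn1 at 4.41 ± 0.568 RPKM. Trp53inp1 and Mdm2 overlapped there, as did Phlda3 and Plk2, and Plk2 and Zmat3. Trp53 thus went from below the range of Mdm4, with 1 control culture inside it, to above it. No exon base of the 10 genes is shared with another gene in GENCODE M21.

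The wider p53 pathway was described by lists of regulators and targets compiled from general knowledge. Of 34 regulators, 32 were tested, and 18 were higher and 4 lower (56.2% and 12.5%, with a median log2 fold change of 0.28), against 24.5% and 23.2% of all genes tested. The lower count was 7 without the third Th1 replicate, with upper-quartile factors and among protein-coding genes, so no difference from the background is read from it. Usp10, a deubiquitinase that spares p53 from breakdown, rose by 0.82 on the log2 scale (adjusted p = 2.39e-07 from edgeR). Trim28, a corepressor that works with Mdm2, rose by 0.61, and Ube4b, a ubiquitin ligase of p53, by 0.52. The regulators that fell were Rchy1 (log2 fold change -0.41), a p53 ubiquitin ligase, Kat5 (-0.30), an acetyltransferase, and the ribosomal protein genes Rpl5 (-0.50) and Rpl11 (-0.66), whose proteins can bind Mdm2. Ribosomal protein genes have many pseudogene copies that could share reads, so the values of Rpl5 and Rpl11 are uncertain. The DNA damage kinases Chek1 and Chek2 rose by 0.42 and 0.61, and the p53 phosphatase gene Ppm1d, also a p53 target, by 0.58. The furthest rise was that of Cdkn2a, whose locus also encodes the Mdm2 inhibitor Arf, from 12, 17 and 5 reads to 73, 74 and 69 reads (log2 fold change 2.47, standard error 0.38, adjusted p = 5.48e-05 from edgeR), and gene counts do not tell its transcripts apart.

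Over the 75 further targets, 69 were tested, of which 24 were higher and 11 lower (34.8% and 15.9%, beside 24.5% and 23.2% of all genes tested), and their median log2 fold change was 0.08. Of 8 tested genes for cell cycle arrest, 3 were higher and 1 lower (37.5% and 12.5%, beside the same background), with a median of 0.22. Cdkn1a, the p21 gene and best-known target, had 13575, 12495 and 9133 reads against 15143, 16136 and 11625 reads. Its groups overlapped after scaling, at 371 ± 64.7 and 398 ± 57.3 CPM (SD, n = 3 each; log2 fold change 0.10, 95% interval -0.15 to 0.35, adjusted p = 0.509 from edgeR). The genes that rose were Gtse1 (log2 fold change 1.00), a microtubule protein of dividing cells that restrains p53, Plk3 (0.34) and Zfp385a (0.55), and Ptprv, a phosphatase-related gene, fell by 0.86.

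Of 17 tested genes of apoptosis, 4 were higher and 2 lower (23.5% and 11.8%, beside 24.5% and 23.2% of all genes tested), and the median was 0.0041. The higher share was thus near that of all genes. Tnfrsf10b, the mouse TRAIL death receptor, Bid, Pidd1 and the survival gene Bcl2l1 rose by 0.65, 0.58, 0.51 and 0.34 on the log2 scale. Perp, a membrane protein gene, decreased from 93.1 ± 5.02 to 28.1 ± 1.39 CPM (SD, n = 3 each; log2 fold change -1.73, standard error 0.0785, adjusted p = 1.61e-10 from edgeR). Pmaip1, which encodes the death protein Noxa, fell by 0.44 (adjusted p = 0.00391 from edgeR). Bax (log2 fold change -0.0018), Bbc3, which encodes Puma (0.24), and the death receptor Fas (-0.07) were not called, with adjusted p of 0.184 or more from edgeR.

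Of 10 DNA repair targets, all tested, 4 were higher and 1 lower (40% and 10%, beside 24.5% and 23.2% of all genes tested), with a median of 0.08. Polh, a polymerase that copies past ultraviolet damage, rose by 0.92 on the log2 scale (adjusted p = 1.91e-06 from edgeR), and Xpc, which finds damaged bases, Rrm2b, a ribonucleotide reductase subunit, and Rps27l rose by 0.40, 0.29 and 0.26. Ercc5, a repair nuclease, fell by 0.21 (adjusted p = 0.0435 from edgeR). This list depended on single cultures, as 2 genes were higher without the first or without the second Th1 replicate, and the lower count was 0 without any 1 culture other than the second Th1 replicate.

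Of 15 tested targets in metabolism and stress, 4 were higher and 5 lower (26.7% and 33.3%, beside 24.5% and 23.2% of all genes tested), with a median of 0.01. The higher share was again near the background. Beside Sesn2, the genes Tigar, which lowers glycolytic flux, Tsc2, which holds back mTORC1, and Slc19a2, a thiamine transporter, rose by 0.57, 0.57 and 0.50 on the log2 scale. Gls2, a mitochondrial glutaminase, went from 63.2 ± 6.75 to 33.2 ± 1.97 CPM (SD, n = 3 each; log2 fold change -0.93, standard error 0.0899, adjusted p = 4.8e-07 in edgeR). The kinase subunits Prkab1 and Prkab2, with Cpt1c and Ak1, fell by 0.23 to 1.09. The lower count was 3 without the second Th1, the second ALX-5407 or the third ALX-5407 replicate. In the remaining list of 22 targets, 19 were tested, with 9 higher and 2 lower (47.4% and 10.5%, beside the same background), and a median of 0.14. Trp53i11, Pml, the scaffold of nuclear bodies, and Tap1, a peptide transporter, rose by 0.90, 0.81 and 0.40, and Mxd4, a repressor of the MYC network, fell by 0.63.

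**Figure D4:**
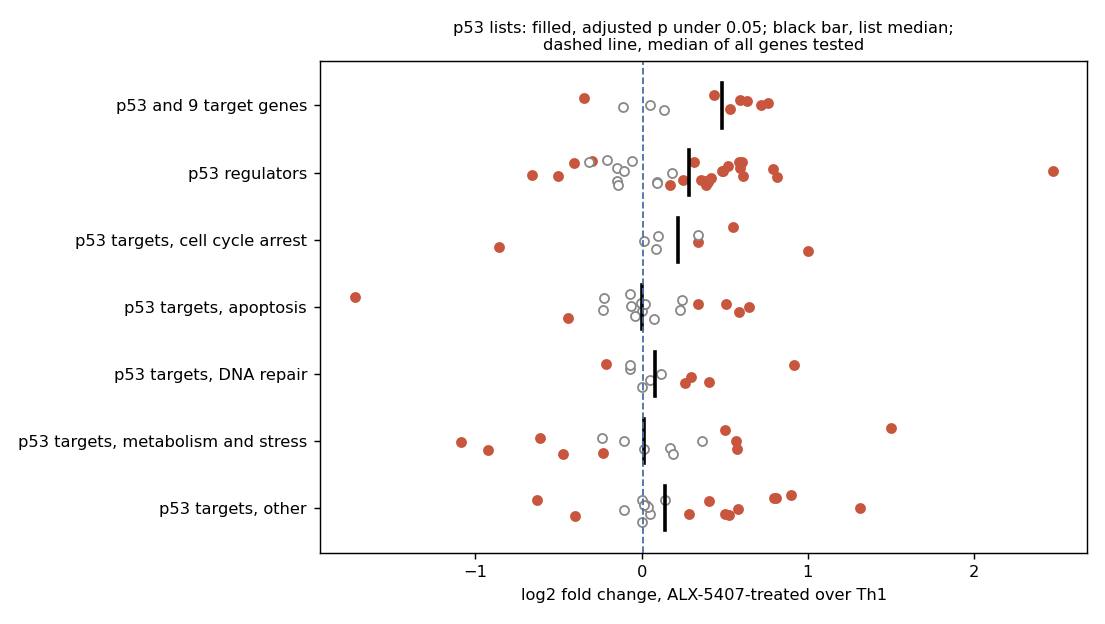
Log2 fold change of ALX-5407-treated over Th1 cultures (horizontal axis) for each tested gene of each list (points, spread vertically only to be seen), filled red where the adjusted p is under 0.05, with the list median as a black bar and the median of all genes tested, 0.0053, as a dashed line. Trp53 and the 9 genes have the median furthest from it, 0.48, while that of apoptosis targets is 0.0041, and Cdkn2a at 2.47 and Perp at -1.73 are the outermost points.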

How the data were processed

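RNA of 6 CD4+ T cell cultures under Th1 conditions was sequenced, 3 with and 3 without ALX-5407, and groups and replicate numbers were taken from the sample titles. The deposited values are raw counts, whole reads per gene in each library, which the authors made, per the submitters' processing notes, with fastp, HISAT2 2.0.5 and featureCounts 1.5.0-p3 on mm10 (GRCm38). Annotation release, strand setting and treatment of reads with several matches are not given in the sources used here, but the listed gene lengths of the 10 genes equal their merged exons in GENCODE M21. The labels describe poly(A) capture, and the study's methods describe ribosomal RNA depletion.

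From the counts, the quasi-likelihood F test of edgeR 4.0.16 (R 4.3.3) was computed after filterByExpr (minimum count 10, minimum total 15) and TMM scaling, without covariates, and p-values of the 15938 genes left were adjusted by Benjamini-Hochberg. A call is an adjusted p under 0.05. The study used DESeq2, which was run as an alternative. Counts of replicates were further apart than sampling alone gives (chi-square 5.58 to 22.3 times its degrees of freedom). Same-numbered cultures did not deviate together (correlations of deviations of -0.0084, 0.00355 and 0.0635), so the numbers were not taken as pairs. Single ratios were compared by exact permutation tests in scipy 1.17.1, and p53 decamers were searched in RefSeq promoter windows.

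The genes, lists and tests were chosen with earlier results of these data known. All 10 genes are named, then up to 4 called genes of smallest p per list, all tested paralogs, and Cdkn1a, Bax, Bbc3, Pmaip1 and Fas. Rpl11, Rchy1, Kat5, Chek1, Chek2, Prkdc, Atm, Atr, Ppm1d, Cdkn2a, Bcl2l1, Ercc5, Slc19a2, Prkab1, Prkab2, Cpt1c, Ak1, Gdf15, Dram1 and Trp53cor1 were named after their values were seen. 1 list symbol, Ptp4a1, is carried by several genes and was left out.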

Additional observations from a re-analysis of the deposited data

How the results depend on the processing

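Trp53, Zmat3, Aen, Phlda3, Trp53inp1 and Ccng1 were called higher in the main analysis and under all 14 alternatives (RLE, upper-quartile or no scaling factors, no low-count filter, DESeq2, limma-voom, protein-coding genes only, a replicate block, and each culture left out), with log2 fold changes of 0.55 to 0.70 for Trp53, 0.66 to 0.85 for Zmat3, 0.64 to 0.79 for Aen, 0.51 to 0.67 for Phlda3, 0.43 to 0.64 for Trp53inp1 and 0.36 to 0.54 for Ccng1. Mdm2 (-0.17 to -0.05, lowest adjusted p 0.0544), Mdm4 (-0.03 to 0.11) and Sesn1 (0.03 to 0.23) were called under none of them. Plk2 (-0.44 to -0.27) lost its call in 1 of the 14, so leaving out a culture gave 6 higher and 0 to 1 lower calls among the 10 genes. With the fold threshold of the study's methods, 0 of the 10 genes were higher and 0 lower, against 536 and 1064 of all genes, and the highest log2 fold change of the 10 under the 14 was 0.853, for Zmat3. Leaving out 1 culture gave 3330 to 3852 higher and 3220 to 3851 lower genes in all, whose split shifted from 51.4% higher to between 45.1% and 58.0% under other scalings.

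Among the lists, the lower regulators were 7 with upper-quartile factors and 7 among protein-coding genes, the lower cell cycle targets 0 among protein-coding genes because Ptprv is not one of them, and the lower DNA repair targets 0 with total counts only, 0 with no low-count filter and 0 in DESeq2, where the cause was not tested. With 1 culture left out, counts ranged from 13 to 17 higher and 3 to 7 lower regulators, from 2 to 4 higher and 1 to 1 lower arrest targets, from 4 to 5 and 2 to 3 apoptosis targets, from 2 to 4 and 0 to 1 repair targets, from 4 to 5 and 3 to 6 metabolic targets, from 8 to 9 and 2 to 2 other targets and from 6 to 7 and 2 to 2 paralogs. The log2 differences of ratios ranged from -0.20 to -0.10 for Mdm2 over Mdm4, 1.19 to 1.48 for Sesn2 over Sesn1 and -0.86 to -0.68 for Mdm2 over Trp53. With the replicate block, 4071 genes were higher and 3833 lower, and no call among the 10 genes or count of a list moved past 1.5 times. Nothing given says whether same-numbered cultures shared more than a number. Depth limits the values of sparse genes, as Gdf15 had at most 24 reads in any culture.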

Other observations

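Of the target lists, 6 genes were not tested. The stress cytokine gene Gdf15, a target of p53 and of other stress factors, had 0, 3 and 0 reads in the Th1 cultures and 24, 22 and 10 reads with ALX-5407, and did not pass the low-count filter of the main analysis. Dram1, an autophagy gene, had at most 8 reads in any culture, Rprm had none, Tgfa and Svop had at most 7, and Ptp4a1 was left out because several genes carry its symbol. Trp53cor1, the long noncoding RNA known as lincRNA-p21 that lies next to Cdkn1a, had 89, 94 and 85 reads in the Th1 cultures and 121, 158 and 156 with ALX-5407 (log2 fold change 0.51, standard error 0.19, adjusted p = 0.0355, edgeR). It rose in these counts, and Cdkn1a itself was not called.

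Over the 6 cultures, the genes whose log2 CPM was most like that of Trp53 were Rtn4rl1 (Pearson's r 0.9996), Uhrf1 (0.999) and Sept9 (0.9989), the last listed in the table under a symbol altered to a date. With 6 points that share a difference between 2 groups, these values are a description. Among the p53 genes, r with Trp53 was 0.954 for Zmat3, 0.952 for Phlda3, 0.882 for Aen, 0.739 for Trp53inp1, 0.71 for Ccng1, 0.265 for Sesn1, 0.0852 for Mdm4, -0.808 for Mdm2 and -0.85 for Plk2. Many other genes had values as high. The share of all genes tested with a lower r was 93.3% for Zmat3, 92.9% for Phlda3, 83.7% for Aen, 73.2% for Trp53inp1 and 71.7% for Ccng1.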
